A study of Arabidopsis thaliana with 45 samples.

Results

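Polysomal RNA of non-dormant Arabidopsis thaliana seeds was compared with that of dormant seeds after 24 h in water, over all 27827 probe sets of the arrays. The arrays were chosen by their titles, which gave 3 non-dormant and 2 dormant arrays, 5 of the 45 arrays of the series. Both groups were seeds of the genotype NILDOG1-Cvi in the Landsberg erecta background, a near-isogenic line with the DOG1 region from the accession Cvi, so the dormant and the non-dormant seeds share that allele. The other arrays cover total RNA, 6 h of imbibition and cordycepin, an adenosine analogue that ends RNA chains and is used to block transcription. The way in which seeds lost their dormancy is not stated in the labels. The labels conflict in places: the treatment protocol speaks of dry seeds and the molecule field of total RNA for every array, so what a group is rests on the titles and the sample characteristics. Each replicate was a bulk of 8 plants grown in randomized blocks, per the labels, and no array type is named there.

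A dormant seed takes up water and is metabolically active, but its embryo does not elongate through the endosperm and seed coat. Abscisic acid (ABA) holds this state and gibberellin opposes it, and the protein of DOG1, a gene named for delayed germination, sets in large part how long it lasts. Polysomes are messenger RNAs loaded with several ribosomes, so RNA purified from them represents transcripts engaged in translation. During germination the messages of maturation (storage proteins, oil body proteins, protectants of the dry state) become fewer. Those for wall loosening, growth and cell division become more abundant. Indole glucosinolates are sulfur-rich defence compounds made from tryptophan, which is also a precursor of auxin.

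The 3 non-dormant arrays correlated with each other at Pearson's r = 0.975 to 0.984 across probe sets, the 2 dormant arrays at 0.978, and arrays of different groups at 0.933 to 0.950. The seed label was checked against storage protein genes, whose 9 members had group means between 6.77 and 12.21 on the log2 scale, all above the array medians of 3.97 to 4.27. Endosperm markers stood at 10.40 to 10.55 (log2 of the summed levels of 7 genes) in the non-dormant and at 10.67 to 10.92 in the dormant arrays, and of the 7 genes 3 rose and 2 fell (1 without dormant replicate 1). Seed coat markers summed to 8.77 to 9.45 in the non-dormant and 8.92 to 9.47 in the dormant arrays, and between 3 and 6 of the 8 lay under an array's lower quartile. Root hair markers summed to 6.60 to 6.97 and 6.53 to 6.89, with 4 or 5 of the 9 under the lower quartile and none called. Such sums follow mainly the brightest genes and do not describe each marker. The highest group mean of a gene was 10.57 among endosperm, 9.10 among seed coat and 5.85 among root hair markers. The part of these tissues in the results below was not tested, and in whole seeds fewer cells of a type and less RNA per cell cannot be told apart.

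At 24 h the messages on polysomes differed widely between the seeds. The linear model (limma, 1 mean per group over all 45 arrays, Benjamini-Hochberg adjusted p under 0.05) called 5135 of 27827 probe sets, 18.5%. Non-dormant seeds had the higher level in 2872 of these (10.3% of those tested) and the lower in 2263 (8.13%), and 1845 of the higher (6.63%) and 1147 of the lower (4.12%) differed at least 2-fold. The 3 non-dormant and 2 dormant values did not overlap in 11070 probe sets (39.8%), and 5022 (18% of those tested) were without overlap and also called. The median difference over all probe sets was -0.06 on the log2 scale. The shares of 18.5% called, 10.3% higher and 8.13% lower are the background for each list count below. Without dormant replicate 2, whose loss leaves that group a single array, the count was 3343.

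The 12 largest rises were picked among called genes with a symbol whose 2 groups did not overlap. They ran from 4.60 to 7.06 on the log2 scale, and these genes have varied roles. SCPL44 (AT1G43780), a serine carboxypeptidase-like protein, stood at 10.47, 10.37 and 9.88 in non-dormant and 3.15 and 3.21 in dormant seeds. The non-dormant arrays lay about 7 log2 units above the dormant ones, and the difference of 7.06 ± 0.38 (SE) was 133-fold (limma adjusted p = 2.39e-16). XTH31 (AT3G44990), a xyloglucan endotransglucosylase of the growing wall, stood at 8.95, 9.15 and 8.28 in the non-dormant arrays and 2.77 and 3.22 in the dormant ones. Its difference of 5.80 ± 0.33 was 55.7-fold. The pectin methylesterase PME3 (AT3G14310), which removes methyl groups from wall pectin, was at 8.0, 8.10 and 7.64 in non-dormant and 2.65 and 2.85 in dormant seeds, a difference of 5.16 ± 0.32. All non-dormant values of these genes were high and all dormant ones lay near the low end of the scale. IGMT5 (AT1G76790), a methyltransferase of indole glucosinolates, was at 9.02, 9.15 and 9.21 in the non-dormant arrays and 4.78 and 3.26 in the dormant ones; the 2 dormant arrays were themselves apart, and the difference was 5.11 ± 0.35. AKN2 (AT4G39940), an APS kinase that supplies activated sulfate, behaved alike in its dormant arrays, at 9.04, 9.33 and 8.69 in non-dormant and 3.67 and 5.14 in dormant seeds, with a difference of 4.62 ± 0.40. PYK10 (AT3G09260), the main beta-glucosidase of endoplasmic reticulum (ER) bodies, was at 9.12, 8.77 and 8.83 in the non-dormant arrays and 4.08 and 4.03 in the dormant ones and rose by 4.85 ± 0.36. G-TMT (AT1G64970), the gamma-tocopherol methyltransferase of vitamin E synthesis, was already above the array median in dormant seeds, at 10.09, 10.32 and 10.21 in non-dormant and 5.20 and 5.66 in dormant seeds, and rose by 4.78 ± 0.28. The other members of the 12 largest rises were scpl20 (5.26 ± 0.32), the fatty acid desaturase ADS1 (5.01 ± 0.38), the actin ACT11 (4.93 ± 0.66), PLAT2 (4.62 ± 0.34) and the expansin EXPA2 (4.60 ± 0.34).

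The 12 largest falls, picked by the same rule (a call, a symbol and no overlap), ran from -4.49 to -3.53 on the log2 scale. The largest over all probe sets, in one without a symbol, was 26.8-fold. HSP23.6-MITO (AT4G25200), a small heat shock protein of mitochondria, stood at 5.50, 5.33 and 5.86 in the non-dormant arrays and 10.06 and 10.05 in the dormant ones. The dormant arrays were nearly equal and far above the non-dormant ones, and the difference of -4.49 ± 0.21 was 22.5-fold (limma adjusted p = 1.22e-17). The beta-glucosidase BGLU19 (AT3G21370) was at 5.95, 6.32 and 5.60 in non-dormant and 9.83 and 10.57 in dormant seeds, a difference of -4.24 ± 0.25. ATECP31 (AT3G22500), a late embryogenesis abundant (LEA) protein, was at 7.50, 8.41 and 8.27 in the non-dormant arrays and 11.98 and 12.21 in the dormant ones, and differed by -4.03 ± 0.23. ASN1 (AT3G47340), the asparagine synthetase induced when sugar is short, was at 5.68, 6.35 and 5.62 in non-dormant and 9.48 and 9.80 in dormant seeds and differed by -3.75 ± 0.18. HSFA9 (AT5G54070), the heat shock factor of maturing seeds, was at 3.63, 3.84 and 3.45 in the non-dormant arrays and 7.72 and 6.86 in the dormant ones and differed by -3.65 ± 0.30. PIMT2 (AT5G50240), which repairs aged proteins, was at 3.83, 4.56 and 4.34 in non-dormant and 7.65 and 7.91 in dormant seeds and differed by -3.53 ± 0.22. In each of these the lowest dormant array lay more than 3 log2 units above the highest non-dormant array. ELIP1 (AT3G22840), an early light-induced protein, was the least even of the 12, at 4.06, 4.45 and 4.93 in the non-dormant arrays and 8.98 and 7.31 in the dormant ones, and its difference was -3.67 ± 0.73 (limma adjusted p = 0.000238). The remaining large falls were the seed metallothionein AtMT4b (-3.90 ± 0.19), the ferredoxin FD4 (-3.85 ± 0.24), the galactinol synthase GolS2 (-3.69 ± 0.20), HSP70T-2 (-3.57 ± 0.21) and the vesicle protein VAMP712 (-3.53 ± 0.28).

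**Figure D1:**
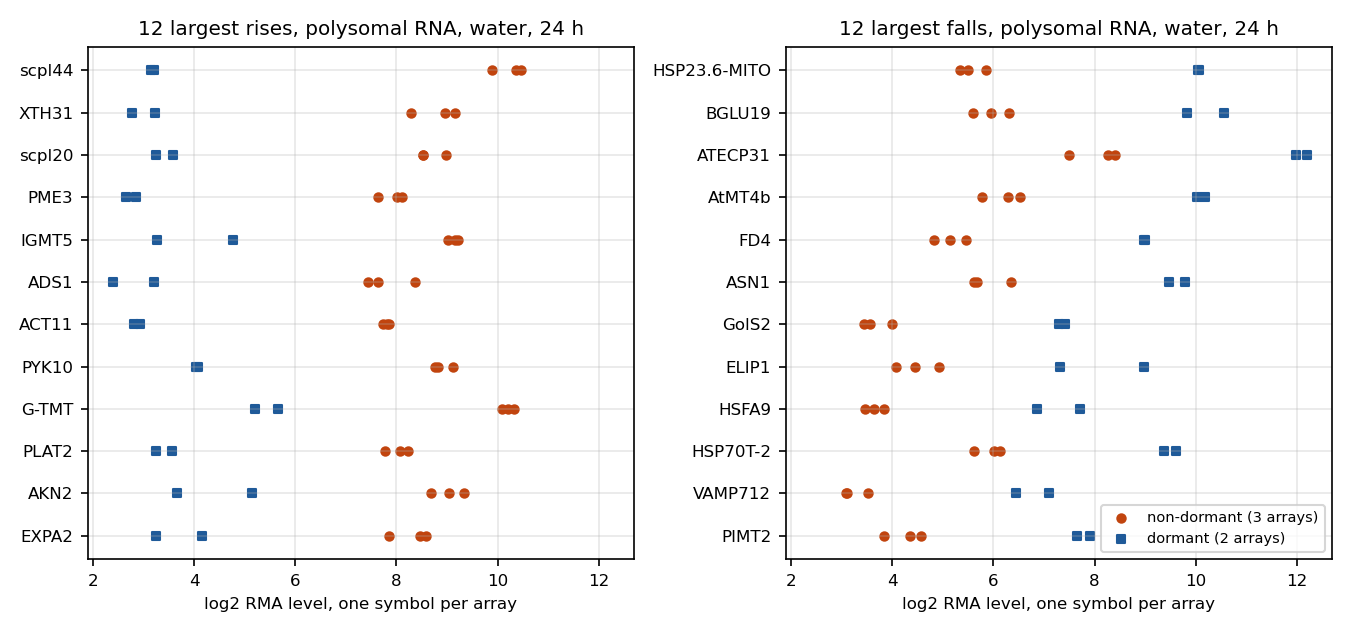
Level of the 12 genes with a symbol that had the largest rise (left) and the 12 with the largest fall (right) in polysomal RNA at 24 h in water, on the log2 RMA scale, with a circle for each non-dormant and a square for each dormant array. The 24 genes were picked among called genes whose 3 non-dormant and 2 dormant values do not overlap. The dormant arrays are widest apart for ELIP1, IGMT5 and AKN2.

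Genes of tryptophan synthesis rose in part. Of 7 genes, 3 rose and none fell: ASA1, the rate-limiting anthranilate synthase subunit, PAT1, the phosphoribosyltransferase of the next step, and TSA1, the alpha subunit of tryptophan synthase. ASA1 was at 7.28, 6.90 and 6.78 in non-dormant and 5.92 and 5.92 in dormant seeds, with a difference of 1.07 ± 0.22 (limma adjusted p = 0.000457). PAT1 was at 6.48, 6.22 and 6.21 in the non-dormant arrays and 5.21 and 4.80 in the dormant ones, with a difference of 1.3 ± 0.21 (adjusted p = 1.42e-05). TSA1 was at 8.48, 8.53 and 8.14 in non-dormant and 7.05 and 6.99 in dormant seeds, with a difference of 1.36 ± 0.21 (adjusted p = 4.34e-06). In these 3 genes every non-dormant array lay above both dormant ones. The other members differed by 0.17 ± 0.18 (TSB1, the main beta subunit), -0.52 ± 0.19 (TSB2, adjusted p = 0.0576), 0.18 ± 0.35 (PAI3) and -0.27 ± 0.67 (ASB1). TSB2 was called lower without non-dormant replicate 2, with the filter on dim probe sets, with array weights and with a trended robust prior. The list median was 0.18.

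Of 19 genes of auxin synthesis, 1 rose and 2 fell (15.8% called, beside 18.5% of all probe sets). TAA1, the aminotransferase that turns tryptophan into indole-3-pyruvate, stood at 5.99, 6.14 and 5.71 in the non-dormant arrays and 3.88 and 5.34 in the dormant ones. The lower dormant array was far below the other, and the difference was 1.34 ± 0.34 (limma adjusted p = 0.0035); without dormant replicate 1 none of the list was called higher, and without non-dormant replicate 1 or 2 the count was 2. The related TAR2 was at 6.73, 6.48 and 6.50 in non-dormant and 5.77 and 6.14 in dormant seeds and did not pass the test (0.62 ± 0.33, adjusted p = 0.233), nor did TAR1 (0.00 ± 0.41). Flavin monooxygenases of the YUCCA family make auxin from indole-3-pyruvate. Of the 11 measured, none rose and 1, YUC5, fell, from 2.89 to 2.15 on the log2 scale (-0.74 ± 0.24, limma adjusted p = 0.0242). Its non-dormant mean of 2.15 lay under the lower quartiles of the 5 arrays (2.24 to 2.56), close to background. The fall of YUC5 was not called in 8 of 13 alternatives. YUC3 was at 4.16, 4.53 and 4.75 in the non-dormant arrays and 3.48 and 3.73 in the dormant ones, so its arrays did not overlap, but it missed the threshold (0.88 ± 0.33, adjusted p = 0.0596). The 9 others differed by -0.62 (YUC11) to 0.71 (YUC1): YUC2 by -0.36 ± 0.25, YUC4 by 0.39 ± 0.31, YUC6 by 0.47 ± 0.27, YUC7 by 0.38 ± 0.38, YUC8 by 0.24 ± 0.35, YUC9 by 0.39 ± 0.40 and YUC10 by -0.53 ± 0.23. The largest change of the list was a fall: the aldehyde oxidase AAO1 was at 8.30, 8.16 and 8.39 in non-dormant and 10.51 and 10.07 in dormant seeds and differed by -2.01 ± 0.18 (adjusted p = 4.44e-11). The nitrilases NIT1, NIT2 and NIT3 differed by 0.45 ± 0.23, 0.17 ± 0.34 and -0.46 ± 0.22 and the amidase AMI1 by 0.71 ± 0.30, and none passed the test. Leaving out dormant replicate 1 or 2 or non-dormant replicate 3 left 1 gene of the list called lower, as did quantile scaling within RNA type.

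Genes of indole glucosinolate synthesis rose nearly along the whole path. Of 15 genes, 11 rose, each at least 2-fold, and none fell; the list median was 1.88. The cytochromes that make indole-3-acetaldoxime from tryptophan, CYP79B2 and CYP79B3, stood at 6.86, 6.46 and 6.35 in the non-dormant arrays and 3.76 and 3.74 in the dormant ones for the first and at 6.36, 6.66 and 5.96 in non-dormant and 3.78 and 3.63 in dormant seeds for the second. Neither overlapped between the groups, and they differed by 2.80 ± 0.27 and 2.62 ± 0.34. CYP83B1, which commits the oxime to glucosinolates, was at 9.23, 9.34 and 8.62 in the non-dormant arrays and 5.06 and 5.25 in the dormant ones. Its difference of 3.91 ± 0.25 was the largest of the list (limma adjusted p = 9.70e-15). Genes of the steps that add the sulfur and sugar rose too. The C-S lyase SUR1 rose by 1.99 ± 0.26, the gamma-glutamyl peptidase GGP1 by 1.77 ± 0.29 and the glutathione transferase GSTF9 by 1.03 ± 0.15. The glucosyltransferase UGT74B1 rose by 1.65 ± 0.18 and the sulfotransferase SOT16 by 1.88 ± 0.17. MYB34, a transcription factor that activates the pathway, was at 6.76, 7.12 and 7.68 in non-dormant and 4.25 and 3.26 in dormant seeds and rose by 3.43 ± 0.40 (adjusted p = 2.04e-08). The other activators of its group did not pass the test, MYB51 at a difference of -0.08 ± 0.41 and MYB122 at -0.39 ± 0.29. CYP81F enzymes modify the indole ring, and CYP81F2 (2.53 ± 0.32) and CYP81F4 (3.30 ± 0.41) rose. The methyltransferase IGMT1 was dim, at 1.63 to 2.38 over the 5 arrays (-0.53 ± 0.32), and the myrosinase PEN2, which breaks indole glucosinolates down, differed by 0.01 ± 0.33.

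**Figure D2:**
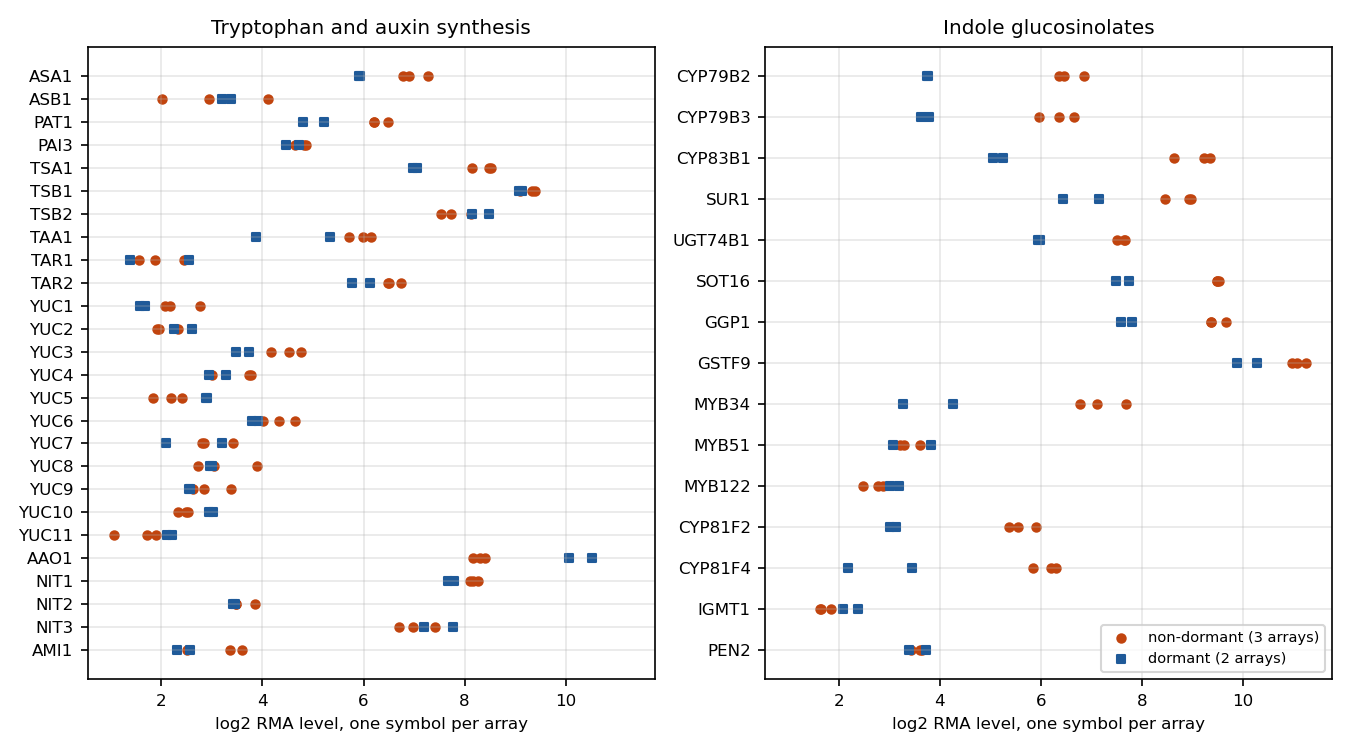
Level of each gene of tryptophan and auxin synthesis (left) and of indole glucosinolate synthesis (right) in polysomal RNA at 24 h in water, on the log2 RMA scale, with circles for the 3 non-dormant and squares for the 2 dormant arrays. On the right the groups are apart for the 11 called genes, while on the left ASA1, PAT1, TSA1 and TAA1 lie to the right in non-dormant seeds and AAO1 to the left.

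Genes of ER bodies, compartments of beta-glucosidases that act on glucosinolates, rose as well: 6 of 13, with none lower. Besides PYK10, the jacalin-related lectin PBP1, which binds PYK10, was at 7.63, 7.45 and 7.61 in the non-dormant arrays and 3.08 and 3.25 in the dormant ones and rose by 4.40 ± 0.25, and the related JAL34 was at 6.53, 6.18 and 6.38 in non-dormant and 2.38 and 2.67 in dormant seeds and rose by 3.84 ± 0.30. NAI1, the transcription factor of ER body formation, rose by 3.22 ± 0.31 and NAI2, a protein needed to form the bodies, by 3.73 ± 0.41. For PBP1, JAL34, NAI1 and NAI2 every non-dormant array lay above 5 and every dormant array below 4 on the log2 scale. The list median was 1.05. Of 13 aliphatic glucosinolate genes, whose products come from methionine, only the sulfotransferases SOT17 (2.95 ± 0.37) and SOT18 (1.60 ± 0.29) were called. That is 15.4%, beside 18.5% of all probe sets, and the list median was -0.16. CYP79F1, the first enzyme of that branch, lay between 1.28 and 1.85 in the 5 arrays.

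Auxin transport and the Aux/IAA repressors changed in some members. Of 15 transport genes, 5 rose and none fell (33.3% called, beside 18.5% of all probe sets, median 0.59). The efflux carriers PIN7 and PIN2 rose by 1.61 ± 0.33 and 1.15 ± 0.31, the influx carriers LAX1 and LAX2 by 1.44 ± 0.36 and 0.96 ± 0.34, and ABCB19 by 0.80 ± 0.26. PIN3 was at 5.89, 6.19 and 5.34 in the non-dormant arrays and 4.48 and 4.16 in the dormant ones, a similar size of difference, but missed the threshold (1.49 ± 0.54, limma adjusted p = 0.0515). The count was 2 without dormant replicate 1, 3 without dormant replicate 2 or non-dormant replicate 1, and 8 without non-dormant replicate 3. It was 3 after quantile scaling of the arrays. Among 25 Aux/IAA genes, whose products hold back auxin responses until degraded, 7 rose and 2 fell (median 0.06). With only the compared arrays in the fit 6 rises and no fall were called. IAA20 was at 5.01, 5.22 and 5.93 in non-dormant and 2.79 and 2.97 in dormant seeds and rose by 2.51 ± 0.36, and IAA16 and IAA27 rose by 2.48 ± 0.35 and 1.93 ± 0.30. IAA2 fell by 1.45 on the log2 scale (SE 0.46, adjusted p = 0.0233), and neither fall was called without dormant replicate 1 or non-dormant replicate 1 or 2, and 1 without dormant replicate 2.

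DOG1 itself did not pass the test. It stood at 3.24, 3.41 and 3.38 in the non-dormant arrays and 3.49 and 3.45 in the dormant ones, under the array medians, and the non-dormant values lay just under the dormant ones (-0.12 ± 0.30, limma adjusted p = 0.86). Of 12 dormancy regulators, 2 rose and 5 fell (median -0.08), and the falls numbered 2 with only the compared arrays in the fit. MFT, a seed protein of the phosphatidylethanolamine-binding family that modulates ABA responses, was at 4.61, 5.01 and 5.41 in non-dormant and 8.16 and 7.94 in dormant seeds and fell most (-3.04 ± 0.22, adjusted p = 2.74e-13). SPT, a bHLH factor of dormancy and light responses, was at 7.63, 7.54 and 7.56 in the non-dormant arrays and 5.46 and 5.45 in the dormant ones and rose by 2.12 ± 0.33. The GATA factor BME3, a positive regulator of germination, rose by 0.93 ± 0.27. AHG1 and AHG3, phosphatases of ABA signalling that work with DOG1, differed by -1.05 ± 0.15 and -0.67 ± 0.18, and the phosphatase-like RDO5 by -0.68 ± 0.17. The light-dependent repressor PIF1 differed by 0.12 ± 0.16 and was not past the threshold. Without dormant replicate 2 the falls numbered 3, and without dormant replicate 1 a single rise was called.

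ABA genes moved in both directions. Of 10 synthesis genes 3 rose and 2 fell (median -0.01). NCED5, a dioxygenase of the rate-limiting step, was at 5.82, 6.07 and 5.56 in non-dormant and 8.0 and 8.53 in dormant seeds and differed by -2.45 ± 0.24 (limma adjusted p = 5.47e-10). ABA1, the zeaxanthin epoxidase upstream of it, was at 6.84, 6.66 and 6.82 in the non-dormant arrays and 8.72 and 8.60 in the dormant ones and differed by -1.89 ± 0.17. The groups did not overlap for either gene. NCED6, the endosperm form, rose from a low level, at 3.78, 4.77 and 4.17 in non-dormant and 2.22 and 3.28 in dormant seeds (1.49 ± 0.40, adjusted p = 0.00578). ABA4 and ABA2 rose just past the threshold, by 0.76 ± 0.28 and 0.69 ± 0.25. The rises were called in none of the list without dormant replicate 1 and in 1 gene without dormant replicate 2, non-dormant replicate 2 or non-dormant replicate 3, and quantile scaling left 1 rise and 3 falls. CYP707A2, the ABA 8'-hydroxylase known for seeds, was at 5.82, 6.10 and 5.83 in the non-dormant arrays and 6.68 and 6.46 in the dormant ones and was lower in non-dormant seeds (-0.65 ± 0.17, adjusted p = 0.00367), a call lost without dormant replicate 1. Its relatives CYP707A1 (-0.26 ± 0.32) and CYP707A4 (-0.54 ± 0.27) did not pass the test.

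Of 14 ABA receptors, 6 rose and 4 fell (median 0.19). PYL2 was at 9.22, 9.46 and 9.44 in non-dormant and 6.60 and 6.67 in dormant seeds, with a difference of 2.74 ± 0.22, and PYL6 was at 6.16, 6.54 and 6.57 in the non-dormant arrays and 4.01 and 4.05 in the dormant ones, with a difference of 2.40 ± 0.34. PYL8 rose by 2.48 ± 0.38, although its dormant arrays were apart by more than 1 log2 unit. PYL11, known for its seed expression, was nearly level at 2.90 to 3.08 in non-dormant seeds and at 6.34 and 4.66 in the dormant ones (-2.52 ± 0.63, limma adjusted p = 0.00334), and PYL7 differed by -1.32 ± 0.26. Without dormant replicate 1 the falls numbered 2. Among 17 signalling genes, 2 rose and 6 fell (median -0.13). That is 47.1% called, beside 18.5% of all probe sets, 10.3% higher and 8.13% lower. The phosphatases HAI1 and HAI2, induced by ABA, differed by -1.62 ± 0.38 and -2.12 ± 0.16, and the bZIP factor ABF4 by -1.40 ± 0.47. ABI5, the bZIP factor that arrests germinated embryos, was at 9.04, 8.82 and 9.98 in non-dormant and 10.84 and 9.95 in dormant seeds, and non-dormant replicate 3 lay above dormant replicate 2 although the gene was called (-1.11 ± 0.31, adjusted p = 0.00791). ABI4, an AP2 factor of sugar and ABA signalling, went the other way, at 9.45, 9.48 and 9.63 in the non-dormant arrays and 8.47 and 8.42 in the dormant ones, and rose by 1.07 ± 0.15. ABF2 rose by 1.2 ± 0.32. Without dormant replicate 2, as after quantile scaling over all arrays, 1 of these rises was called; scaling within RNA type kept 2.

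Genes for the last steps of gibberellin synthesis rose. Of 14 genes, 5 rose and none fell (median 0.14). GA3OX2 and GA3OX1 make the bioactive hormone. GA3OX2 was at 8.19, 8.40 and 8.70 in non-dormant and 4.71 and 3.32 in dormant seeds, with a difference of 4.42 ± 0.53 (limma adjusted p = 3.86e-08), and GA3OX1 was at 7.98, 7.58 and 7.84 in the non-dormant arrays and 4.57 and 4.44 in the dormant ones, with a difference of 3.30 ± 0.28 (adjusted p = 1.25e-11). The non-dormant arrays lay more than 3 log2 units above the dormant ones in both. The GA20OX genes of the preceding steps rose by 2.11 ± 0.45 (GA20OX1), 1.49 ± 0.27 (GA20OX3) and 1.3 ± 0.30 (GA20OX2). GA20OX4 (-0.55 ± 0.30) and KAO1 (0.31 ± 0.26), an enzyme of an earlier step, did not pass the test. Of 16 genes for inactivation and signalling, 2 rose and 3 fell. That is 31.2% called, beside 18.5% of all probe sets, 10.3% higher and 8.13% lower. RGL1, a DELLA repressor of gibberellin responses, rose by 2.99 ± 0.33. The receptors went opposite ways, with GID1A at 8.25, 8.41 and 8.30 in non-dormant and 9.68 and 9.99 in dormant seeds (-1.52 ± 0.16) and GID1C (-1.29 ± 0.21) lower and GID1B higher (1.01 ± 0.36, adjusted p = 0.043). A single rise was called without dormant replicate 1 or 2 or non-dormant replicate 1 or 3, and after quantile scaling. GASA genes, which encode small cysteine-rich peptides and answer to gibberellin, also split: GASA6 was at 9.61, 9.57 and 9.48 in the non-dormant arrays and 4.98 and 5.56 in the dormant ones and rose by 4.29 ± 0.33, whereas GASA3 was at 7.50, 7.92 and 7.86 in non-dormant and 11.14 and 11.41 in dormant seeds and GASA2 at 3.91, 5.16 and 3.81 in the non-dormant arrays and 7.35 and 8.21 in the dormant ones, with differences of -3.52 ± 0.17 and -3.49 ± 0.28. In all, 3 of 7 rose and 2 fell. Of 10 ethylene genes 30% were called, beside 18.5% of all probe sets. ACO1 of the last step of synthesis (2.44 ± 0.39) was the 1 rise, beside 10.3% of all probe sets higher. The transcription factor EIN3 (-0.92 ± 0.17) and ACS2 (-1.16 ± 0.25) fell.

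Many wall-loosening genes rose. Expansins, which loosen walls without cutting polymers, had 7 of 14 members higher and none lower, with a list median of 1.50. EXPA2, known for its endosperm expression before radicle emergence, was at 8.47, 8.58 and 7.86 in non-dormant and 3.25 and 4.16 in dormant seeds. EXPA10 was at 10.82, 11.05 and 10.62 in the non-dormant arrays and 6.96 and 7.71 in the dormant ones, and rose by 3.50 ± 0.34. EXPA1 was at 9.60, 9.74 and 9.25 in non-dormant and 6.43 and 7.37 in dormant seeds and rose by 2.63 ± 0.28. The dormant arrays of EXPA1 and EXPA10 were themselves above the array medians by more than 2 log2 units. EXPA9, EXPA3 and EXPA8 rose by 3.54 ± 0.34, 2.93 ± 0.35 and 2.81 ± 0.27, and EXPA6 did not pass the test (0.36 ± 0.37). Of 20 XTH genes, 8 rose and 1 fell (median 0.30). After XTH31 came XTH9 (4.41 ± 0.29), XTH19 (4.18 ± 0.25), XTH15 (3.57 ± 0.44) and XTH16 (3.0 ± 0.39). XTH25, which fell, was at 6.22, 7.21 and 6.28 in the non-dormant arrays and 9.81 and 9.86 in the dormant ones, a difference of -3.27 ± 0.20 (limma adjusted p = 4.39e-15). Among 6 mannanases, which cut storage mannans of the endosperm wall, only MAN7 was called (16.7%, beside 18.5% of all probe sets). It was at 8.43, 8.32 and 7.61 in non-dormant and 6.65 and 6.76 in dormant seeds and rose by 1.41 ± 0.26. None of 13 cellulose synthesis genes was called, and their median was -0.04; the test called 1 with array weights or without non-dormant replicate 3.

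Other genes of the cell surface rose too. Of 11 fasciclin-like arabinogalactan proteins, 5 rose and none fell (median 0.65), led by FLA2, at 6.99, 6.95 and 6.23 in the non-dormant arrays and 2.69 and 3.37 in the dormant ones (3.69 ± 0.34). The count was 3 without dormant replicate 1 or 2 or non-dormant replicate 2 or 3. Of 18 genes for cuticle and very long chain fatty acids, 10 rose and none fell (median 0.81). LACS2, an acyl-CoA synthetase of cutin synthesis, was at 8.04, 7.89 and 7.54 in non-dormant and 4.07 and 4.14 in dormant seeds and rose by 3.72 ± 0.24, and the acyltransferase GPAT4 was at 6.36, 6.87 and 6.25 in the non-dormant arrays and 2.95 and 3.65 in the dormant ones and rose by 3.19 ± 0.33. The elongase KCS10 rose by 1.67 ± 0.24, the wax gene CER3 by 1.58 ± 0.28 and the exporter ABCG11 by 1.22 ± 0.26. Without dormant replicate 2 the rises numbered 6, and quantile scaling or leaving out non-dormant replicate 2 added 1 fall. Plasma membrane aquaporins (PIPs) had 3 of 13 higher and 1 lower, with PIP2;8 at 5.92, 6.49 and 5.72 in non-dormant and 1.65 and 1.88 in dormant seeds and PIP2;7 and PIP1;3 higher by 2.76 ± 0.31 and 2.54 ± 0.40; the fall of PIP1;5 (-0.90 ± 0.26) was not called without dormant replicate 2. The vacuolar aquaporins of seeds fell: BETA-TIP was at 5.22, 6.60 and 5.92 in the non-dormant arrays and 9.0 and 9.71 in the dormant ones (-3.44 ± 0.28) and TIP3;1 at 7.68, 8.49 and 7.87 in non-dormant and 10.57 and 10.96 in dormant seeds (-2.75 ± 0.21). They were the 2 called of 10 TIP genes (20%, beside 18.5% of all probe sets). Of the 13 PIP genes 30.8% were called.

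Messages of stored reserves fell without exception among those listed. All 9 storage protein genes and all 6 oil body genes were lower in non-dormant seeds, each at least 2-fold. The cruciferin CRA1 was at 10.12, 10.70 and 9.80 in the non-dormant arrays and 12.14 and 12.28 in the dormant ones, and CRU2 at 9.25, 9.72 and 8.94 in non-dormant and 11.47 and 11.81 in dormant seeds. Their differences were -2.0 ± 0.17 and -2.34 ± 0.17 (limma adjusted p = 8.94e-12 and 4.50e-13). Even after the fall, CRA1 stood more than 5 log2 units above the array medians. The vicilin-like PAP85 differed by -2.26 ± 0.14, and the albumins SESA5, SESA2 and SESA1 by -2.05 ± 0.19, -1.71 ± 0.34 and -1.33 ± 0.15. Of the oil body genes, the oleosins OLEO1, OLEO2, OLEO3 and OLEO4, which coat the droplets, differed by -1.42 ± 0.17, -2.24 ± 0.20, -1.39 ± 0.21 and -1.42 ± 0.16. The caleosin CLO1 was at 7.75, 8.04 and 8.45 in the non-dormant arrays and 10.83 and 10.55 in the dormant ones (-2.61 ± 0.20) and the peroxygenase ATPXG2 at 6.85, 7.17 and 7.18 in non-dormant and 10.34 and 10.42 in dormant seeds (-3.31 ± 0.14, adjusted p = 1.54e-18). The dormant arrays of ATPXG2 were nearly equal. The list medians were -1.71 for storage proteins and -1.83 for oil bodies.

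Most protectants of the dry seed fell. Of 19 LEA genes, 15 fell and 2 rose (median -0.98). EM1, an abundant seed LEA protein, was at 10.04, 9.95 and 10.64 in the non-dormant arrays and 12.22 and 12.09 in the dormant ones (-1.95 ± 0.17), LEA14 at 5.44, 5.90 and 6.12 in non-dormant and 8.79 and 8.86 in dormant seeds (-3.0 ± 0.19) and RD29B, a marker of ABA responses, at 8.38, 8.37 and 9.02 in the non-dormant arrays and 10.73 and 10.56 in the dormant ones (-2.06 ± 0.23). LTI30 was uneven within both groups, at 5.20, 5.61 and 7.49 in non-dormant and 9.07 and 7.88 in dormant seeds (-2.38 ± 0.36). The dehydrin COR47 went the other way, at 8.43, 8.38 and 8.86 in the non-dormant arrays and 3.85 and 4.18 in the dormant ones, a rise of 4.54 ± 0.26 (limma adjusted p = 5.52e-16). Of 13 heat shock genes, 9 fell and none rose (median -1.81). The disaggregase HSP101 was at 6.02, 6.62 and 6.69 in non-dormant and 9.79 and 9.57 in dormant seeds (-3.24 ± 0.17), HSP17.6A at 8.09, 7.93 and 8.93 in the non-dormant arrays and 11.13 and 10.96 in the dormant ones (-2.73 ± 0.27) and HSP90-1 at 7.19, 7.39 and 7.89 in non-dormant and 10.05 and 9.96 in dormant seeds (-2.52 ± 0.19). HSFA2 (-0.59 ± 0.27) and the chloroplast HSP21 (-0.40 ± 0.25) lay under the array medians in all 5 arrays and did not pass the test. Among 10 genes of the raffinose family sugars, which protect dry membranes, the galactinol synthases GOLS1 and GOLS2 and the stachyose synthase STS fell, with GOLS1 at 6.79, 7.85 and 7.52 in the non-dormant arrays and 10.47 and 10.64 in the dormant ones (-3.17 ± 0.21) and STS at 1.61, 2.80 and 2.42 in non-dormant and 5.19 and 5.80 in dormant seeds (-3.22 ± 0.31). DIN10, annotated as a raffinose synthase, was at 8.22, 8.62 and 7.71 in the non-dormant arrays and 3.50 and 3.76 in the dormant ones and rose by 4.55 ± 0.29, and SIP2 rose by 0.58 ± 0.16; leaving out dormant replicate 1 or non-dormant replicate 2 kept 1 of these 2 calls. The seed metallothioneins MT4A (-3.25 ± 0.24) and MT4B fell with MT2A (-0.61 ± 0.16), 3 of 7.

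Genes that use the reserves were mixed. Of 19 genes of lipid mobilisation (fatty acid oxidation and the glyoxylate cycle), 4 rose and 1 fell. That is 26.3% called, beside 18.5% of all probe sets, 10.3% higher and 8.13% lower. The list median was 0.03, and no difference among those named was past 1 on the log2 scale. With only the compared arrays in the fit 1 rise and no fall were called. The acyl-CoA oxidases ACX4 and ACX2 rose by 0.88 ± 0.19 and 0.48 ± 0.13, and AIM1 fell (-0.73 ± 0.15). PED1, the thiolase of fatty acid oxidation, stood at 11.24, 11.53 and 10.81 in non-dormant and 11.00 and 11.58 in dormant seeds with overlapping groups (-0.09 ± 0.22). Without dormant replicate 1 a single rise was called, and without non-dormant replicate 1 the falls numbered 2. Of 13 reserve proteases, 5 rose and 3 fell (median 0.10). Besides SCPL44, the cysteine proteases RD19 (2.60 ± 0.29) and RD21A (2.39 ± 0.43) rose and the vacuolar processing enzyme BETA-VPE, which matures storage proteins, was at 9.68, 9.53 and 9.31 in the non-dormant arrays and 10.88 and 10.87 in the dormant ones and fell (-1.37 ± 0.14).

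Cell cycle and cytoskeleton genes rose. Of 16 DNA replication genes, 13 rose and none fell, with a list median of 1.74. PCNA1, the sliding clamp, was at 7.89, 8.09 and 7.39 in non-dormant and 5.04 and 4.84 in dormant seeds and rose by 2.85 ± 0.37 (limma adjusted p = 1.73e-07). CDT1A, which licenses origins, was at 6.73, 6.58 and 6.74 in the non-dormant arrays and 4.50 and 4.05 in the dormant ones and rose by 2.40 ± 0.28. The helicase subunits MCM2 and MCM6 rose by 1.78 ± 0.34 and 1.84 ± 0.32, and TSO2, a ribonucleotide reductase subunit, was at 8.77, 8.92 and 8.50 in non-dormant and 6.66 and 7.12 in dormant seeds and rose by 1.84 ± 0.21. Of 16 cyclins, kinases and inhibitors, 9 rose and none fell (median 0.93), 4 without dormant replicate 2. D-type cyclins, which drive entry into the cycle, led them: CYCD1;1 was at 4.81, 5.06 and 4.87 in the non-dormant arrays and 2.86 and 2.33 in the dormant ones and CYCD3;2 at 7.17, 6.70 and 7.31 in non-dormant and 5.36 and 4.77 in dormant seeds, rises of 2.32 ± 0.28 and 1.99 ± 0.27. Of 15 tubulins, 12 rose and none fell (median 1.09), and 8 rose with only the compared arrays in the fit. TUA4 was at 8.77, 9.28 and 8.89 in the non-dormant arrays and 5.46 and 6.61 in the dormant ones and rose by 2.95 ± 0.32, and TUB5 was at 5.09, 5.21 and 5.50 in non-dormant and 1.43 and 1.83 in dormant seeds and rose by 3.63 ± 0.36. Of 8 actins 3 rose: ACT11, ACT3 (1.77 ± 0.34) and ACT2 (0.78 ± 0.17).

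Of 23 cytosolic ribosomal protein genes, 2 rose (8.7%, beside 10.3% of all probe sets) and none fell: RPL24A, at 10.27, 10.34 and 10.70 in the non-dormant arrays and 9.65 and 9.49 in the dormant ones (0.87 ± 0.25, limma adjusted p = 0.011), and RPL10B (0.72 ± 0.24). The list median was 0.35, against -0.06 for all probe sets, and the count moved with the scaling, to 8 after quantile scaling of all arrays and 7 after scaling within RNA type. No rise was called without dormant replicate 2 or non-dormant replicate 3, and 1 was called without dormant replicate 1 or non-dormant replicate 2. None of 11 ribosome assembly genes was called (median 0.21); NUC1, a nucleolin, was at 11.48, 11.72 and 11.64 in non-dormant and 11.43 and 11.54 in dormant seeds. Leaving out dormant replicate 2 gave 1 call there.

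Nuclear genes of chloroplasts rose in part and organelle genes did not. Of 27 photosynthesis genes, 11 rose and none fell (median 0.27). RBCS1A, a small subunit of Rubisco, was at 10.50, 10.38 and 10.79 in the non-dormant arrays and 8.31 and 8.48 in the dormant ones and rose by 2.16 ± 0.24. The photosystem II proteins PSBO1 (1.67 ± 0.31) and PSBP1 (1.55 ± 0.28) rose, and the light-harvesting gene LHCB1.2 did not pass the test (0.82 ± 0.46). The count was 6 without dormant replicate 1 and 7 without dormant replicate 2 or non-dormant replicate 3. Of 8 chlorophyll synthesis genes, 5 rose (median 1.25), with CHLI1, a subunit of magnesium chelatase, at 6.82, 6.87 and 6.83 in non-dormant and 3.71 and 3.67 in dormant seeds (3.15 ± 0.36) and CRD1 at 7.56, 7.46 and 7.46 in the non-dormant arrays and 4.97 and 4.43 in the dormant ones (2.80 ± 0.31). Without dormant replicate 2 the count was 2. Of 15 plastid-encoded probe sets, 1 fell (6.67%, beside 8.13% of all probe sets lower) and none rose. The fall was not called with only the compared or only the polysomal arrays, nor without non-dormant replicate 1 or 2. Of 92 mitochondrion-encoded ones, 20 fell (21.7%, beside 8.13% of all probe sets lower) and none rose, with a median of -0.32. The falls numbered only 2 with just the compared arrays in the fit, 8 with the polysomal arrays alone and 10 without non-dormant replicate 3. The clock genes PRR9 (-2.19 ± 0.34) and GI (-1.03 ± 0.25) were the 2 of 10 called, both lower (20%, beside 18.5% of all probe sets called). Without non-dormant replicate 2 a rise was called as well.

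**Figure D3:**
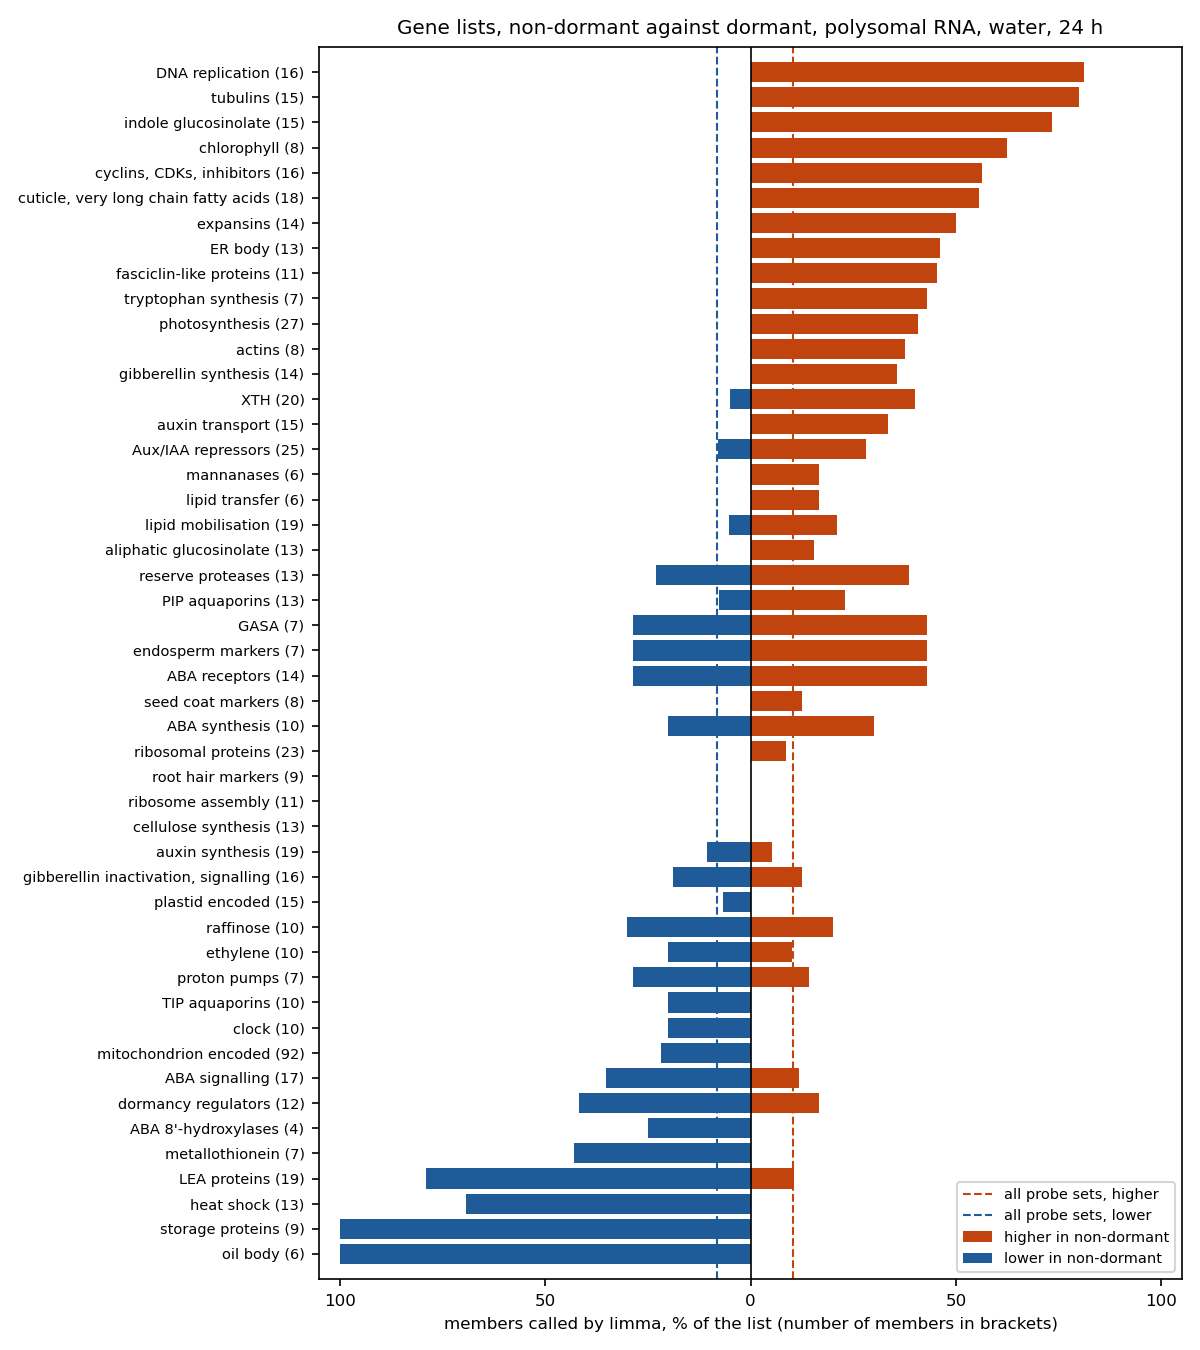
Share of each gene list called by limma as higher (bars to the right) or lower (bars to the left) in non-dormant seeds, in percent of the members, with the number of members in brackets and dashed lines for the same shares over all probe sets (10.3% higher and 8.13% lower). The lists of storage proteins and oil bodies reach 100% lower, and DNA replication, tubulins and indole glucosinolates have the longest bars to the right.

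Most of the polysomal calls were also made in total RNA. In total RNA at 24 h in water, measured on 6 other arrays, 5638 probe sets (20.3%) were called, 3215 higher (11.6%) and 2423 lower (8.71%). Of the polysomal calls, 2216 were higher and 1662 lower in both, which is 75.5% of the polysomal and 68.8% of the total RNA calls, and 1 probe set was called in opposite directions. The test of the difference between the RNA types, the interaction, called 2 probe sets (0.00719%), with 1120 at an unadjusted p under 0.05. One was FLA2, which rose by 3.69 ± 0.34 in polysomal and 1.17 in total RNA, an interaction of 2.52 (limma adjusted p = 0.0458). The other, AT5G09820, differed by 1.49 in polysomal and -0.23 in total RNA, an interaction of 1.71 (adjusted p = 0.0458). The count was 0 without any 1 of the 6 total RNA arrays, without dormant or non-dormant polysomal replicate 1 and after quantile scaling, and 1 without non-dormant polysomal replicate 3. A p that misses the threshold does not show that the RNA types act alike, and the 1256 polysomal calls that total RNA did not give are not shown to differ between the RNA types. In total RNA the indole glucosinolate list had 11 of 15 genes higher and a median of 2.18, and the 9 storage protein and 6 oil body genes were lower, as in polysomal RNA.

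Fewer probe sets differed at 6 h. In polysomal RNA after 6 h in water 1249 probe sets (4.49%) were called, 640 higher (2.3%) and 609 lower (2.19%) in non-dormant seeds, and the test of 24 h against 6 h called 2044 (7.35%), 1160 positive (4.17%) and 884 negative (3.18%). SCPL44 differed by 1.09 at 6 h (limma adjusted p = 0.0612) and by 7.06 at 24 h, an interaction of 5.97. XTH31 differed by -0.04 and 5.80, with an interaction of 5.84, and ACT11 by -0.44 and 4.93, with an interaction of 5.37. In the other direction HSP23.6-MITO differed by 0.33 at 6 h and -4.49 at 24 h (interaction -4.82, adjusted p = 5.03e-14). HSP101 was close between the seeds at 6 h, with group means of 10.61 in non-dormant and 10.58 in dormant seeds, and apart at 24 h, with 6.44 and 9.68. Among indole glucosinolate genes, none was called at 6 h (median -0.05) and the interaction was positive in the 11 that rose. The 3 tryptophan genes that rose at 24 h differed by -0.54 (ASA1), -0.40 (PAT1) and -0.36 (TSA1) at 6 h, and the interaction was called in each. Storage proteins had 1 of 9 lower at 6 h and the interaction called in 6, oil bodies none of 6 lower and the interaction called in 6. CRU2 illustrates this: its 6 h means were 12.01 in non-dormant and 12.25 in dormant seeds, and its 24 h means 9.30 and 11.64.

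Some of the named genes were called at both times. Expansins had 5 of 14 higher at 6 h, and EXPA10 differed by 4.01 at 6 h and 3.50 at 24 h. Its interaction was not called (-0.51, limma adjusted p = 0.679). GA3OX2 differed by 2.73 at 6 h and 4.42 at 24 h, and GA20OX3 by 2.67 and 1.49. For GA20OX3 the 6 h difference was the larger, and the interaction was called (-1.18). ABI4 also differed more at 6 h (1.78 against 1.07, interaction -0.71), as did TSO2 (2.77 against 1.84, interaction -0.93). PIF1 differed by 1.19 at 6 h and by 0.12 at 24 h, where it was not called (interaction -1.07, adjusted p = 0.000958). Among the falls, NCED5 differed by -1.21 and -2.45, HAI2 by -1.14 and -2.12, and GolS2 by -2.11 and -3.69. DOG1 differed by -0.72 at 6 h (adjusted p = 0.138).

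**Figure D4:**
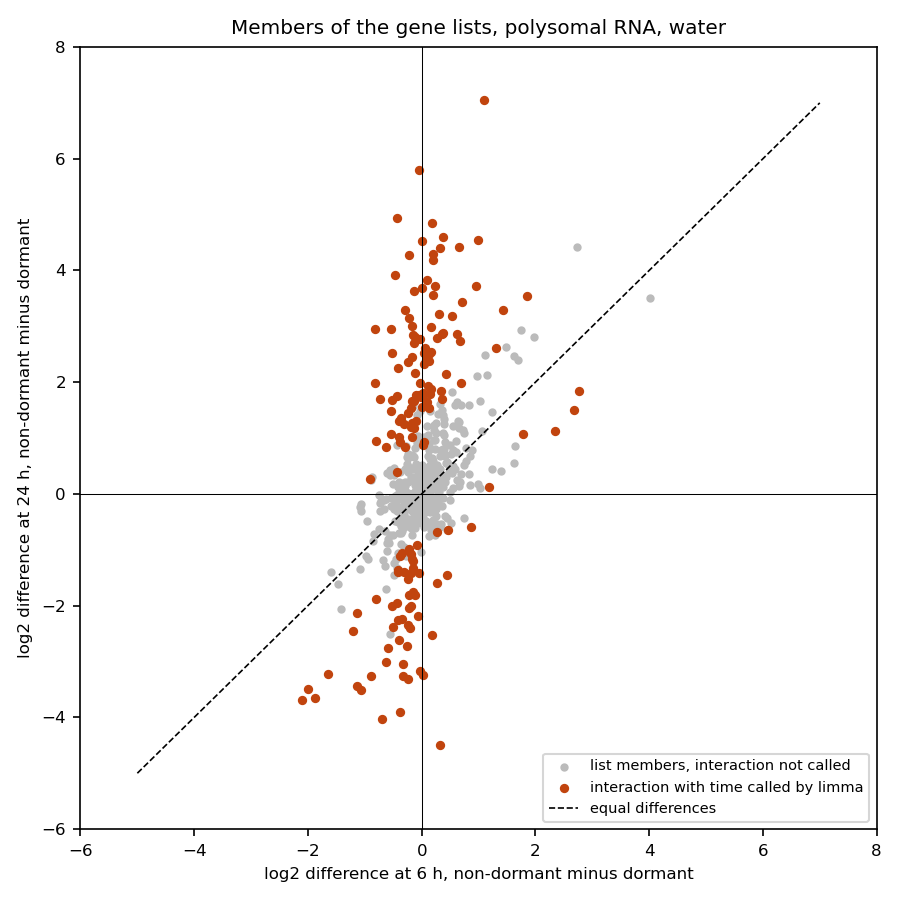
Difference between non-dormant and dormant seeds in polysomal RNA in water at 24 h (vertical axis) against that at 6 h (horizontal axis), both on the log2 scale, for 593 members of the gene lists. The 157 members with a called interaction are in orange and lie mostly in a vertical band around 0 at 6 h, while a smaller arm, with GA3OX2 and EXPA10 at its end, lies near the line of equal differences.

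In cordycepin the seeds differed too, and for few genes was the difference from water past the threshold. In polysomal RNA after 24 h in cordycepin, on 4 other arrays, 3773 probe sets (13.6%) were called, 2142 higher (7.7%) and 1631 lower (5.86%) in non-dormant seeds, and the test of water against cordycepin called 50 (0.18%), 27 positive (0.097%) and 23 negative (0.0827%), with 1597 at an unadjusted p under 0.05. PLAT2, a PLAT domain protein, differed by 4.62 in water and 1.04 in cordycepin, an interaction of 3.58 (limma adjusted p = 0.000103). PBP1 differed by 4.40 and 0.91, an interaction of 3.49, and JAL34 by 3.84 and 0.65, an interaction of 3.19. CYP79B3 (2.62 and 0.12, interaction 2.50), CYP79B2 (2.80 and 0.36, interaction 2.44) and GSTF9 were the 3 indole glucosinolate genes called. In contrast EXPA2 differed by 4.60 in water and 4.75 in cordycepin, and its interaction was -0.15. GASA6 (4.29 and 4.0), HSP101 (-3.24 and -3.48) and GolS2 (-3.69 and -3.48) are other genes whose interaction was not called. The interaction was negative for NCED6, which differed by 1.49 in water and 4.21 in cordycepin (-2.72, adjusted p = 0.0318). It was negative too for EMB1030 (0.55 and 3.25, interaction -2.69) and ANAC087 (0.32 and 2.74, interaction -2.42), neither of which was called in water. The count was 32 without dormant water replicate 2, 27 without non-dormant cordycepin replicate 2 and 23 without dormant cordycepin replicate 2. The fall of ASN1 was larger in water (-3.75) than in cordycepin (-2.08, interaction -1.68).

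**Figure D5:**
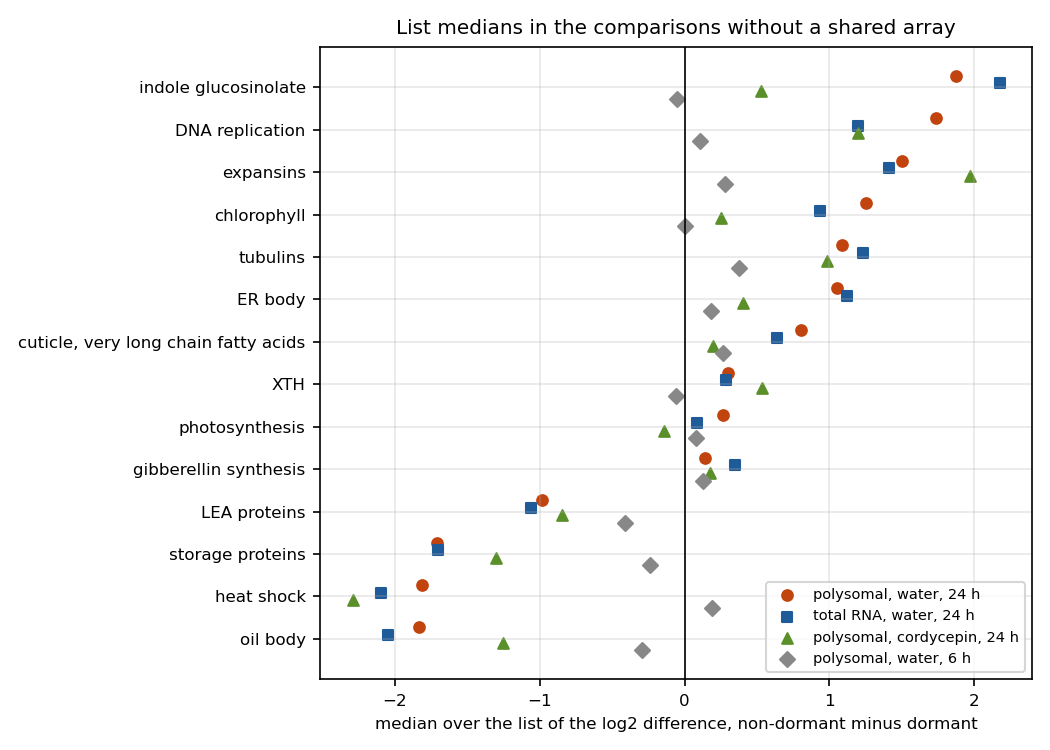
Median over each gene list of the log2 difference between non-dormant and dormant seeds, in polysomal RNA in water at 24 h (circles), total RNA in water at 24 h (squares), polysomal RNA in cordycepin at 24 h (triangles) and polysomal RNA in water at 6 h (diamonds), with a small vertical offset between symbols. The 6 h medians lie between -0.41 and 0.38, and the 24 h medians of the indole glucosinolates are 1.88 in polysomal and 2.18 in total RNA in water and 0.53 in cordycepin.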

How the data were processed

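Polysomal RNA of imbibed seeds was labelled with biotin and hybridised to arrays, 5 of which enter the comparison. The authors deposited log2 values from RMA, per the submitters' processing notes. In general RMA removes background, brings the probe values of the arrays to a common distribution and combines the probes of a set. The deposited probe set values did not share a distribution exactly, with medians of 3.97 to 4.27 over the 5 arrays. Its version, the array type and the definition of the probe sets are not named in the labels. Because of the scaling in RMA a difference is relative to the average transcript. Array quartiles were 2.24 to 2.56 (lower) with means of 4.58 to 4.62, and 457 called probe sets have a group mean under 2.56, where a difference is compressed. The number of arrays limits the precision.

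Locus codes were matched to RefSeq genes (assembly TAIR10.1, names only): 27241 of 27827 matched and 10556 had a symbol. Of the entries of the 46 gene lists, 583 were kept, 27 dropped for want of a symbol and 3 were not measured here; 15 plastid-encoded and 92 mitochondrion-encoded probe sets were added.

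All 45 arrays entered 1 fit by limma 3.58.1 (R 4.3.3, data.table, version 1.17.8) with a mean for each group. It left 29 residual degrees of freedom, and its prior had 6.39 with an SD of 0.294. The p-values of all comparisons therefore rest on the spread over 16 groups, not on that of the compared groups alone. Calls required p under 0.05 after Benjamini-Hochberg adjustment over all probe sets. Values after ± are standard errors. The interactions set the difference against that in total RNA, at 6 h and in cordycepin, which share no array with it. The fit was tested on simulated data.

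Members and lists were chosen with earlier results of these data known. Genes were named by a rule: the 12 largest rises and falls with a symbol and without overlap, up to 6 called and 3 other members of each list, DOG1, the tryptophan, auxin and indole glucosinolate lists, and up to 8 genes in each direction of each interaction. The text gives part of these. Same-numbered polysomal arrays deviated from their group means with correlations of -0.01 to 0.49 (median 0.26 over 66 pairs, against -0.16 for other numbers). The 2 pairs of the compared groups had 0.04 and 0.48. Since not every pair was above 0.1, the main fit did not use the numbers to pair the arrays. Deviations within a group cancel out, so the medians for same and other numbers are not independent. The 2 dormant arrays deviate as mirror images. Dormant replicate 1 and non-dormant replicate 3, of different numbers, had 0.45. These correlations therefore cannot decide whether the numbers carry a block. The main fit does not model any spread shared by arrays of a number, which stays in its residual spread. Alternatives were other scalings, sets of arrays, a filter, variance settings, array weights, a block for the replicate number and leaving out each array.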

Additional observations from a re-analysis of the deposited data

Results flagged for a closer look

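The difference between non-dormant and dormant seeds in polysomal RNA at 24 h in water was itself tested against 3 other settings, and the probe sets past the threshold are given here with their values. Against total RNA 2 probe sets were called by limma: FLA2 with an interaction of 2.52 and AT5G09820 with 1.71 on the log2 scale. Against 6 h 2044 were called, and among genes with a symbol the largest interactions were 5.97 (scpl44), 5.84 (XTH31) and 5.37 (ACT11) on the positive side and -4.82 (HSP23.6-MITO), -3.52 (AtMT4b) and -3.33 (BGLU19) on the negative side. Against cordycepin 50 were called, led by 3.58 (PLAT2), 3.49 (PBP1) and 3.19 (JAL34), and by -2.72 (NCED6), -2.69 (EMB1030) and -2.42 (ANAC087) on the negative side. Groups of 2 or 3 arrays were not searched for single arrays that stand apart.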

How the results depend on the processing

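With only the arrays of the compared groups in the fit, the main comparison called 3286 probe sets in place of 5135, the interaction with time 1330 in place of 2044, that with treatment 8 in place of 50 and that with RNA type 0 in place of 2. Of the list members, that fit called 207 in place of 251. The interaction with RNA type was also 0 under both quantile normalizations, with the filter at a group mean of 4 and with the replicate block, 1 with a trended robust prior and 3 with array weights. The interaction with treatment was 29 with the polysomal arrays alone and 77 with a trended robust prior. Leaving out 1 array gave 3343 (without dormant replicate 2) to 4796 for the main comparison, 0 to 3 for RNA type, 1415 to 2009 for time, 23 to 62 for treatment and 204 to 244 for the 251 list members called. No paired design was assumed: with the replicate number as a block, the main comparison called 5421 over all arrays and 6202 within the polysomal arrays. The share of calls that were higher was 55.9% as deposited, 51.9% and 51.4% after quantile normalization. Of 216 genes named, 177 were called; 145 of these were called under every alternative that tested them, and 0 changed direction. Of the 39 not called, 9 changed direction (log2 differences follow), and the cause was not tested. After quantile normalization over all arrays or within RNA type TAR1 was 0.13 and 0.13, PAI3 -0.00 and -0.00, and PEN2 -0.07 and -0.08. With the block over all arrays or within polysomal arrays TAR1 was 0.04 and 0.01 and PEN2 -0.09 and -0.11, and PED1 was 0.06 in the latter. Leaving out 1 array gave -0.59 to 0.59 for TAR1, -0.16 to 0.18 for PEN2, -0.38 to 0.20 for PED1, -0.45 to 0.30 for MYB51, -0.10 to 0.49 for YUC8, -0.81 to 0.23 for ASB1, -0.16 to 0.93 for YUC7 and -0.00 to 0.64 for ANAC087. Where a fit left 1 dormant array, that array was assumed to vary like the other groups. Levels near the lower quartile of an array, seen for 457 calls, are close to background, which compresses differences there.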

Other observations

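Some lists not described so far were mixed. Proton pumps went both ways, with 42.9% of 7 called, beside 18.5% of all probe sets. The list held plasma membrane pumps named AHA, which acidify the wall, and the vacuolar AVP1 and VHA-A, which were not called. AHA2 was at 8.40, 8.28 and 7.52 in non-dormant and 6.20 and 6.54 in dormant seeds and rose by 1.7 ± 0.30. AHA4 was at 4.33, 4.66 and 4.1 in the non-dormant arrays and 5.75 and 6.49 in the dormant ones and fell (-1.75 ± 0.33, limma adjusted p = 0.000134). AHA11 fell too (-1.03 ± 0.36, limma adjusted p = 0.0379). Of 7 pumps 1 rose and 2 fell; 1 fall, that of AHA4, was called without dormant replicate 1 or 2 or non-dormant replicate 2 or 3, and 3 falls without non-dormant replicate 1. AHA1, another major form, was at 9.61, 9.41 and 8.46 in non-dormant and 9.66 and 9.86 in dormant seeds and did not pass the test (-0.60 ± 0.28). LTP1, a lipid transfer protein of the epidermis, was at 5.06, 6.39 and 6.23 in the non-dormant arrays and 2.74 and 3.37 in the dormant ones and rose by 2.84 ± 0.46. It was the 1 called of 6 such genes (16.7%, beside 18.5% of all probe sets). TTG2, a WRKY factor of seed coat and trichome development, rose by 1.50 ± 0.34, the 1 called of 8 seed coat genes (12.5%, beside 18.5% of all probe sets). Its difference ran from 1.21 to 1.79 over 14 alternatives, and it was not called in 1 of them.

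Among genes named for their interaction with cordycepin, CAD9, a member of the cinnamyl alcohol dehydrogenase family, differed by 4.07 in water and 1.39 in cordycepin (interaction 2.68, limma adjusted p = 0.00136). ASPGB1, an asparaginase that breaks down asparagine, differed by 3.46 and 0.93 (interaction 2.53), opposite in direction to ASN1, which makes it. The auxin transporter ABCB4 differed by -0.18 in water, where it was not called, and by 1.37 in cordycepin (interaction -1.55).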
